A study of Mus musculus with 10 samples.

Results

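The cerebellins Cbln1, Cbln2 and Cbln3, the delta receptor Grid1, the neurexins Nrxn2 and Nrxn3 and the neuroligins Nlgn1 and Nlgn2 were followed in mouse medulloblastoma and in cerebellum. Their probe sets were chosen by name: a probe set was taken when the platform annotation gave it 1 gene symbol and that symbol was one of these 8. This gave 19 probe sets, 7 on the 430A chip and 12 on the 430B chip, of 45137 on both chips together, and 8 of the 18193 genes that these name. All probe sets of Cbln1 and Cbln3, 3 of the 5 of Nrxn3 and 1 of the 2 of Nrxn2 were lower in the tumours, by 4.28-fold to 20.5-fold as ratios of mean intensity. No probe set of Cbln2, Grid1, Nlgn1 or Nlgn2 passed the test, and none of the 8 genes rose.

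The tumours and the cerebellum both came from mice that carry CAGGS-CreER, a tamoxifen-inducible Cre recombinase under a broadly active promoter, and R26-SmoM2, a Cre-dependent allele of an activated Smoothened receptor at the Rosa26 locus. Tamoxifen was given at 1 mg per 40 g body weight on postnatal day 10. The medulloblastoma group holds 3 samples and the cerebellum group 2 on each chip, 10 arrays in all, and the labels number them as biological replicates. The cerebellum was tissue next to the tumours, which the labels call wild type although the animals carried both alleles and had received tamoxifen. The sources used here give neither the age at collection nor the animal behind each array, so a p-value measures the spread between these samples.

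Cerebellins are small secreted proteins of the C1q family. In the cerebellar cortex, granule neurons release cerebellin 1 from their parallel fibres, where it bridges neurexins on the presynaptic membrane to a delta-type glutamate receptor on the Purkinje cell dendrite and so holds the synapse together. Neurexins also bind neuroligins, postsynaptic adhesion proteins of excitatory and inhibitory synapses, and each neurexin gene makes long and short forms from separate promoters.

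Array medians lay between 33.3 and 35.9 intensity units on 430A and between 22.5 and 24.0 on 430B. The tissues were described with lists of cell type markers, whose summed intensity on 430A is given here. The lists were chosen with earlier results of these data known, so they are not an independent check of tissue identity. Mature granule neuron markers summed to 13430 and 15380 in cerebellum and to 1831 to 2847 in the tumours, and all 15 of 15 tested genes were lower in the tumours, led by Gabra6, a granule neuron GABA receptor subunit, and Vsnl1. Purkinje cell markers, led by Calb1 and Pvalb, summed to 15020 and 19430 against 308 to 608, with 11 of 11 lower. Interneuron markers were lower in 5 of 7, led by Gad1 and, on 430B, Lgi2. Gad1 is also on the Purkinje list, and without it the 4 other interneuron genes on 430A summed to 318 and 358 against 140 to 162. Markers of granule neuron precursors and cell division, led by Top2a and Cdk1, ran the other way, at 1096 and 567 in cerebellum and 8031 to 9781 in the tumours, with 14 of 14 higher. The 2 cerebellum arrays differed in these markers. On 430B the sums were 303 in cerebellum 1, 42.5 in cerebellum 2 and 1849 to 2280 in the tumours. Microglia and macrophage markers were higher in 7 of 9 (C1qb and C1qc led), and astrocyte markers (Aldoc, Gja1) and oligodendrocyte markers (Mbp, Mobp) were lower in 8 of 11 and 7 of 8. The astrocyte genes not called were Slc1a2, Gfap and Fabp7, at -0.59, 0.56 and 0.95 log2. Of 7 endothelial markers, Slc2a1 and Flt1 were lower, and the list median was -0.06 log2. The call of Flt1 (limma adjusted p = 0.0252) was lost without cerebellum 1 (0.0871), cerebellum 2 (0.192), medulloblastoma 1 (0.0632) or medulloblastoma 3 (0.0637) and in the fit with a replicate block (0.0532). No marker gene sat at the floor of 1 in all tumours. Granule neurons are the known source of Cbln1 and Cbln3 and carry neurexins, and the part that this shift in markers has in the results below was not tested. In bulk tissue, fewer cells of a type and less RNA per cell cannot be told apart.

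The 2 chips share 100 probe sets, and these set the chips side by side. Cerebellum arrays of the same number matched best across the chips, at r of 0.957 and 0.958 over the shared probe sets. Tumour arrays did not: medulloblastoma 1 on 430A was closest to medulloblastoma 2 on 430B (0.971), 2 to 3 (0.959) and 3 to 1 (0.959). Tumour numbers therefore name arrays within a chip, and members are compared only within a chip. Against the 430A array of the same number, the shared probe sets read 0.11 and 0.17 log2 units higher on 430B than on 430A in cerebellum, and 0.70, 0.77 and 0.07 higher in medulloblastoma 1, 2 and 3. After 430B was scaled on them, the median difference of all its probe sets moved from -0.02 to -0.39, and 20.1% rather than 44.6% of its calls were higher. Same-numbered tumours are not the best matched ones, so the scaling was repeated against the best matched 430A arrays, where the tumours read 0.70, 0.65 and 0.15 higher. The median was then -0.38 and 18.2% of calls were higher. All member calls on 430B stood under both scalings.

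Tumour and cerebellum were compared on each chip with limma, on log2(intensity + 16), with the 25% of probe sets of lowest mean left out. A difference was called at a Benjamini-Hochberg adjusted p below 0.05 over the chip. On 430A, 19.0% of 16969 tested probe sets were lower in the tumours and 13.1% higher, and on 430B 9.77% and 7.85% of 16883. Every tumour lay below every cerebellum array for 31.8% of probe sets on 430A and 24.7% on 430B. These totals lean on single arrays. Without cerebellum 1, the higher calls went from 2231 to 1436 on 430A and from 1326 to 618 on 430B, and the lower calls on 430B from 1649 to 988. Without cerebellum 2, the higher calls were 1284 and 513 and the lower calls 1967 (of 3229) and 917. On 430B, higher calls numbered 823 without medulloblastoma 2 and 2601 without medulloblastoma 3.

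Of the member probe sets, 5 of 7 on 430A and 12 of 12 on 430B passed the filter on low values. Against that background, 4 of the 5 on 430A and 5 of the 12 on 430B were lower, with no overlap between the groups, and 0 were higher. The median difference of the tested members was -2.74 on 430A and -0.28 on 430B, beside -0.05 and -0.02 over all tested probe sets. The 9 lower calls held under every alternative tried, including the loss of any one array. Across the members, the smallest called difference was -1.83 (Nrxn2) and the nearest uncalled one -0.47 (Nlgn2). Uncalled probe sets of Cbln2, Grid1 and Nrxn2, and 1432931_at of Nrxn3, were too dim in cerebellum to reach -1.83 on this scale. For these, the gap in size was fixed beforehand.

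**Figure D1:**
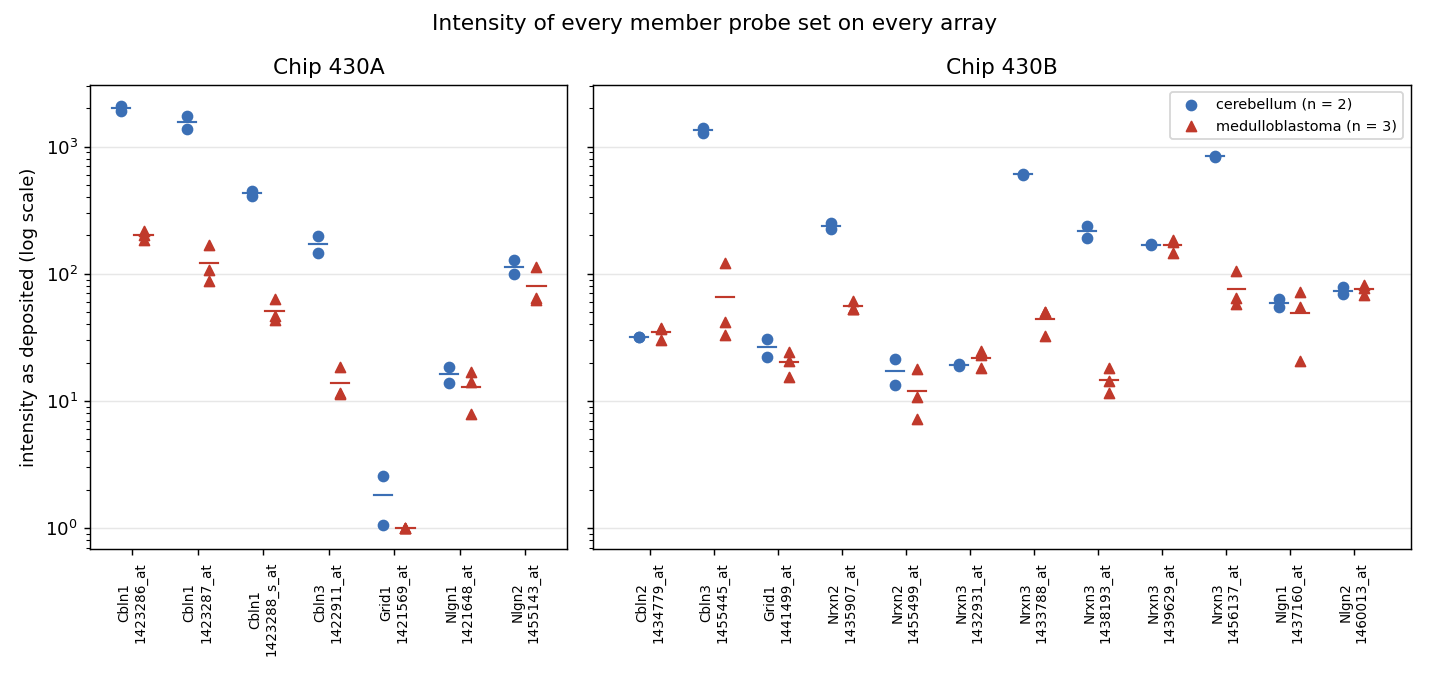
Intensity as deposited (log axis) of the 19 probe sets on each array, with 430A on the left and 430B on the right. Circles are the 2 cerebellum arrays, triangles the 3 tumours and short bars the group means, and the 9 probe sets with a wide gap between circles and triangles are those of Cbln1 and Cbln3, 3 of Nrxn3 and 1 of Nrxn2.

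Cbln1, which encodes the main cerebellin of parallel fibre synapses, fell on all 3 of its probe sets. Probe set 1423286_at read 1911 and 2086 in cerebellum and 185, 215 and 201 in the tumours. The means were 1999 ± 124 (SD, n = 2) and 200.5 ± 14.9 (SD, n = 3), a ratio of 9.97, and the tumours were tightly grouped far below both cerebellum arrays. The log2 difference was -3.22 ± 0.18 (SE) with a limma adjusted p of 7.5e-07.

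Probe set 1423287_at of Cbln1 read 1368 and 1752 in cerebellum and 107, 170 and 87.8 in the tumours. Here medulloblastoma 2 was the highest tumour, still far under the lower cerebellum array. The difference was -3.55 ± 0.26 log2 (SE, limma adjusted p = 2.88e-06). Probe set 1423288_s_at, whose suffix marks probes that can match more than 1 transcript, read 409 and 450 against 43.2, 63.1 and 46.9. Its difference was -2.74 ± 0.20 log2 (SE, limma adjusted p = 3.05e-06). The 95% intervals of the 3 differences ran from -3.62 to -2.82, from -4.13 to -2.98 and from -3.19 to -2.29.

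Cbln3, a cerebellin made almost only by cerebellar granule neurons and secreted together with cerebellin 1, was measured once on each chip. On 430B, probe set 1455445_at read 1283 and 1409 in cerebellum and 33.2, 123 and 41.4 in the tumours. Medulloblastoma 2 stood above the other tumours, and all 3 were far below cerebellum. The means of 1346 ± 89.1 (SD, n = 2) and 65.7 ± 49.4 (SD, n = 3) gave a ratio of 20.5. The difference of -4.22 ± 0.40 log2 (SE, limma adjusted p = 5.69e-05) ranked 2 among the falls of all 16883 tested probe sets on that chip. Without medulloblastoma 2 it was -4.68.

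On 430A, Cbln3 probe set 1422911_at was dimmer, at 145 and 200 in cerebellum and 18.3, 11.3 and 11.6 in the tumours. The groups were again apart, and the tumours lay below the median intensity of their arrays. The difference was -2.66 ± 0.18 log2 (SE, limma adjusted p = 2.14e-06), while the ratio of means was 12.6. At such low tumour values the added 16 sets the size of the log2 difference: it was -3.57 with a pseudocount of 1 and -1.60 with 64, and the probe set was called lower with each.

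The promoter of Cbln3 is shown because it belongs to the member with the deepest fall. It is the stretch of 250 bases before the RefSeq start on the minus strand of GRCm38.p6, chr14:55884257-55884506, with the E-box in capitals. An E-box (CANNTG) is the short motif bound by helix-loop-helix factors such as Atoh1 and Neurod1 of the granule lineage, and was searched on both strands, which read the same letters.
Cbln3: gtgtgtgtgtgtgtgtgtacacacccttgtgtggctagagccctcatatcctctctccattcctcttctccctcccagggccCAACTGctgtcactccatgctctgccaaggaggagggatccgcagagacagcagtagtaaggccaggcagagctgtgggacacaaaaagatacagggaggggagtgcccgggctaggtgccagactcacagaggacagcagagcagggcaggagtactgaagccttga
The E-box starts 168 bases before the start site, and a half-site of nuclear factor I (TTGGCA or TGCCAA) lies at 146 bases before it. Over 32851 promoters of this length, 66.2% hold at least 1 E-box and 12.3% the half-site. The GLI motif GACCACCCA, searched as TGGGTGGTC on the other strand, was not in this window and is held by 0.225% of promoters. A match in letters is a description and not a bound site.

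Cbln2, the cerebellin of other brain regions, was dim and nearly level. Probe set 1434779_at read 31.7 and 32.1 in cerebellum and 37.1, 29.9 and 37.1 in the tumours, so the groups overlapped. The limma difference was 0.08 ± 0.14 log2 (SE), with a 95% interval from -0.23 to 0.39 and an adjusted p of 0.767, and after the scaling on shared probe sets it was -0.29. Within each 430B array, the log2 signal of Cbln3 less that of Cbln2 was 4.77 and 4.89 in cerebellum and -0.11, 1.59 and 0.11 in the tumours. The gap changed by -4.30 log2 units, and the scaling of an array nearly drops out of it. An exact two-sided permutation test gave p = 0.2, the smallest that 2 against 3 arrays allow. Cbln2 was too dim in cerebellum to show a fall like that of Cbln3 on this scale, so an unequal change of these signals was fixed beforehand.

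The delta receptor Grid1, the broadly expressed relative of the Purkinje cell receptor for cerebellin 1, was dim on both chips. On 430B, probe set 1441499_at read 22.3 and 30.7 in cerebellum and 24.2, 15.3 and 20.7 in the tumours. The values overlapped, and the limma difference was -0.24 ± 0.16 log2 (SE, 95% interval -0.59 to 0.12, adjusted p = 0.382). This probe set was too dim in cerebellum to show a fall as deep as those called among the members. On 430A, probe set 1421569_at read 1.06 and 2.57 in cerebellum and 1 in each tumour. It did not pass the filter, and values at the floor of 1 have no order.

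Nrxn3, a presynaptic neurexin, had 5 probe sets on 430B and these split. Probe set 1456137_at read 829 and 846 in cerebellum and 57.3, 63.9 and 105 in the tumours, a ratio of 11.1. Probe set 1433788_at read 601 and 614 against 32.2, 49.7 and 49.6, a ratio of 13.9. Probe set 1438193_at read 193 and 239 against 11.5, 14.4 and 18.04, a ratio of 14.8. All tumours were below both cerebellum arrays in each, and the 2 cerebellum arrays differed little beside that gap.

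Their log2 differences by limma were -3.26 ± 0.26 (SE, adjusted p = 2.26e-05), -3.40 ± 0.22 (adjusted p = 6.85e-06) and -2.92 ± 0.17 (adjusted p = 5.59e-06). They ranked 41, 31 and 76 among the falls on the chip. The third depends on the added constant, since its tumours are dim: its difference was -3.81 with a pseudocount of 1 and -1.83 with 64.

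The other probe sets of Nrxn3 were not called, and the dimmer of them could not show such a fall on this scale. Probe set 1439629_at read 169 and 170 in cerebellum and 145, 178 and 185 in the tumours, means of 169.7 ± 0.76 (SD, n = 2) and 169.6 ± 21.4 (SD, n = 3). The tumours lay on both sides of cerebellum, and the limma difference was -0.01 ± 0.21 log2 (SE, 95% interval -0.48 to 0.47, adjusted p = 0.988). Its interval excludes a fall of the size that the 3 called probe sets show. Probe set 1432931_at was dim, at 19.5 and 18.7 against 18.3, 24.5 and 23.0, with a difference of 0.11 ± 0.14 log2 (SE, 95% interval -0.20 to 0.42, limma adjusted p = 0.672). After the scaling on shared probe sets, the differences of these 2 were -0.38 and -0.26, and neither was called.

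**Figure D2:**
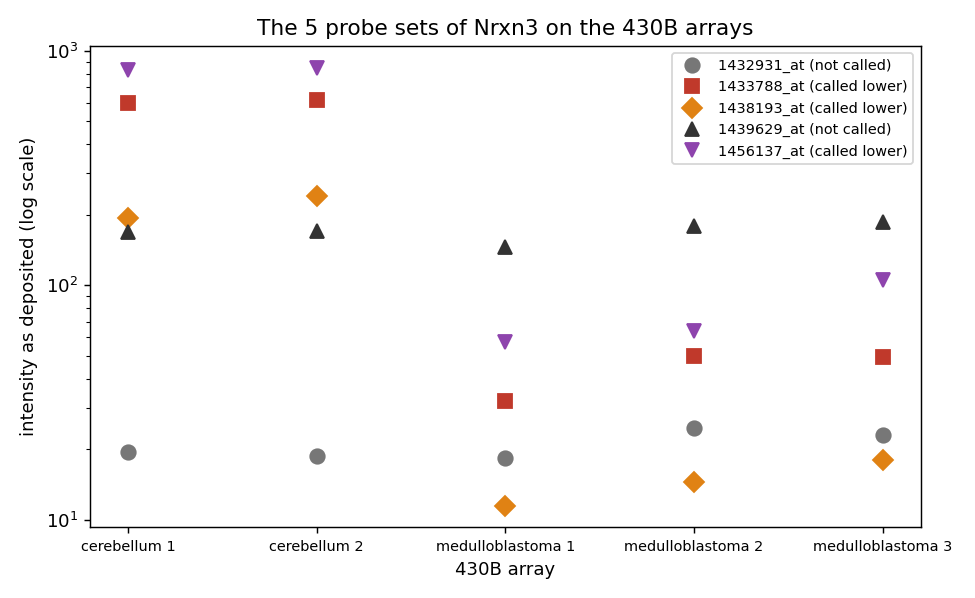
Intensity as deposited (log axis) of the 5 Nrxn3 probe sets on each 430B array, 1 symbol per probe set. The 3 probe sets called lower drop from 193 or more in cerebellum to 105 or less in the tumours, while 1439629_at stays between 145 and 185 on all 5 arrays.

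This split was also read within each array, where the scaling of the array nearly drops out. The log2 signal of 1433788_at less that of 1439629_at was 1.74 and 1.76 in cerebellum and -1.74, -1.56 and -1.62 in the tumours. For 1456137_at it was 2.19 and 2.21 against -1.14, -1.28 and -0.74, and for 1438193_at 0.17 and 0.45 against -2.55, -2.68 and -2.57. The groups were apart in each, by -3.39, -3.25 and -2.91 log2 units. An exact two-sided permutation test gave p = 0.2 for each of the 6 within-array contrasts computed (adjusted p = 0.2), which is the smallest that 2 against 3 arrays allow. The pairs were chosen after their values were seen. The sources used here do not give the transcript form that each probe set reads.

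RefSeq lists 3 starts for Nrxn3, all on the plus strand of chromosome 12 of GRCm38.p6, and they are shown because its probe sets moved apart. The windows are chr12:88794254-88794503, chr12:88953140-88953389 and chr12:89812233-89812482, each of 250 bases before a start, with E-boxes in capitals.
Nrxn3 upstream start: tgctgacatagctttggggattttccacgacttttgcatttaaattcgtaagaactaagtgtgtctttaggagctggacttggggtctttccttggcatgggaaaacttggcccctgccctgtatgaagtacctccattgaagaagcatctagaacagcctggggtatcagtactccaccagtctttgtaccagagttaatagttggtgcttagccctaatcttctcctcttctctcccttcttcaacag
Nrxn3 middle start: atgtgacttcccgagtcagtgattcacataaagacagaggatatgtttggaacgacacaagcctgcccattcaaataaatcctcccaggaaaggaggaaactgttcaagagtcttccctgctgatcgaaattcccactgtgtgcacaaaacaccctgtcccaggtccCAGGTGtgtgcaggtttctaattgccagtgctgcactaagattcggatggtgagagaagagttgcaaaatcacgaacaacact
Nrxn3 downstream start: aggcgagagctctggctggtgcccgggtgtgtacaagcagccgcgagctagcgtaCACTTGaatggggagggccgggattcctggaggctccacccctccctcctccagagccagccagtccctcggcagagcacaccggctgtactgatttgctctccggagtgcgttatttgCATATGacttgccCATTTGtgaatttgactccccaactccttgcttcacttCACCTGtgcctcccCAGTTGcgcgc
The upstream window holds 0 E-boxes, the middle one 1 and the downstream one 5, and 1.15% of promoters of this length hold 5 or more. The nuclear factor I half-site occurs once, in the upstream window. Of the 7 windows that RefSeq gave for the members (Cbln3, Nrxn3, Nlgn1 and Nlgn2), 4 hold an E-box, 2 the half-site and 0 the GLI motif. The arrays do not tell which start a transcript came from. Whether the stretch before each annotated start acts as a promoter was not tested.

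Nrxn2, the other neurexin measured, was lower on 1 of its 2 probe sets on 430B. Probe set 1435907_at read 224 and 253 in cerebellum and 52.4, 53.3 and 61.2 in the tumours, a ratio of 4.28 with a clear gap between the groups. The limma difference was -1.83 ± 0.18 log2 (SE, adjusted p = 8.46e-05), rank 323 among the falls. Probe set 1455499_at was dim, at 13.2 and 21.2 against 17.9, 10.8 and 7.26, and its groups overlapped. Its limma difference was -0.26 ± 0.19 log2 (SE, 95% interval -0.69 to 0.18, adjusted p = 0.441). It was too dim in cerebellum to show a fall like that of 1435907_at on this scale.

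A called probe set of each neurexin, chosen after the values were seen, was set beside the other. The log2 signal of Nrxn3 1433788_at less that of Nrxn2 1435907_at was 1.36 and 1.23 in cerebellum and -0.51, -0.08 and -0.23 in the tumours, a change of -1.57. The exact two-sided permutation test of this contrast gave p = 0.2, the smallest possible. The intervals of the differences, -3.88 to -2.91 for that Nrxn3 probe set and -2.24 to -1.42 for that Nrxn2 probe set, do not overlap. They come from the same arrays and do not test the contrast. The deeper fall of Nrxn3 holds for these probe sets and not for the genes, since Nrxn3 1439629_at differed by -0.01.

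**Figure D3:**
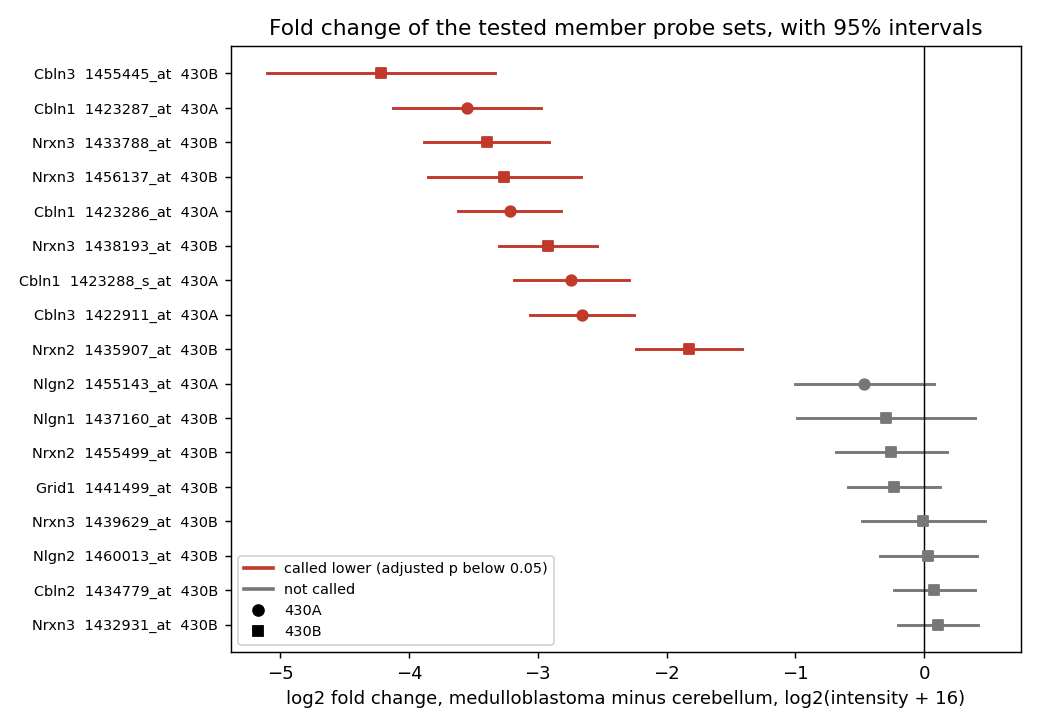
Log2 difference, medulloblastoma minus cerebellum on log2(intensity + 16), of the 17 tested probe sets, with 95% intervals from limma. Red marks the 9 called lower, from -4.22 (Cbln3) to -1.83 (Nrxn2), and grey the 8 not called, whose intervals all include 0.

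Neuroligins were not called on either chip. Nlgn2, the neuroligin of inhibitory synapses, read 99.1 and 128 in cerebellum and 64.4, 114 and 61.7 in the tumours on 430A (1455143_at). Medulloblastoma 2 lay between the cerebellum arrays and the other tumours lay below both. The limma difference was -0.47 ± 0.24 log2 (SE, 95% interval -1.01 to 0.07, adjusted p = 0.183), and without medulloblastoma 2 it was -0.71 and called (adjusted p = 0.00687). On 430B, probe set 1460013_at of Nlgn2 read 78.2 and 68.8 against 77.4, 68.4 and 81.0. Those values overlapped throughout, at 0.03 ± 0.17 log2 (SE, 95% interval -0.35 to 0.41, limma adjusted p = 0.928).

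Nlgn1, the neuroligin of excitatory synapses, read 63.7 and 54.3 in cerebellum and 71.8, 54.3 and 20.7 in the tumours on 430B (1437160_at). Medulloblastoma 3 stood well below the other arrays. The limma difference was -0.30 ± 0.31 log2 (SE, 95% interval -0.99 to 0.39, adjusted p = 0.594), and 0.07 without medulloblastoma 3. On 430A, probe set 1421648_at read 13.9 and 18.6 against 14.2, 7.82 and 16.7, overlapped and did not pass the filter.

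By distance between centred log2 profiles over the 5 arrays of a chip, the genes closest to Cbln1 (1423287_at) were Ndrg4 at 0.236, Rora at 0.392, Sorl1 at 0.441 and Mobp at 0.455. Rora encodes a nuclear receptor of Purkinje cells and Mobp a myelin protein. The genes closest to Cbln3 on 430A were Prnp at 0.159, Clu at 0.174, Prepl at 0.189 and Abat at 0.199. On 430B they were Gabrb2 at 0.933, Elmod1 at 1.03, Fam107a at 1.05 and Gas7 at 1.07. Gabrb2 is a GABA receptor subunit, Clu a secreted chaperone of astrocytes and Abat the enzyme that breaks down GABA. Profiles over 5 arrays mostly hold the gap between the tissues.

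Related genes at the same synapses were taken from a list of 62 adhesion and scaffold genes, of which 56 are on the chips and 53 were tested, by 1 probe set each. Of these, 19 were lower in the tumours and 7 higher, beside 16% lower and 10.7% higher over 14702 genes, and the median difference was -0.13 beside -0.05. The count of 7 was 4 without cerebellum 1 and 2 without cerebellum 2. The falls were led by Lin7a, a scaffold protein, at -3.17 ± 0.23 log2 (SE, limma adjusted p = 1.38e-05), from 940 and 881 to 103, 73.7 and 86.8. Syt1, the calcium sensor of vesicle release, fell by 2.92 ± 0.17 log2 (SE), from 221 and 255 to 15.5, 21.8 and 15.1. The order depends on the probe set taken. Other probe sets of Syt1 were at -1.93, -3.57 and -2.57 log2, and those of Lin7a at -2.47 and -3.25.

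The postsynaptic neurexin partners Clstn3 and Lrrtm3 fell by 2.38 ± 0.22 and 2.19 ± 0.23 log2 (SE). The adhesion proteins Cadm3 and Slitrk4 fell by 1.94 ± 0.20 and 1.90 ± 0.19, and the other probe set of Slitrk4 was at -3.125. In all 4 genes each tumour lay below both cerebellum arrays.

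The rises were led by Slitrk5, an adhesion protein, at 1.51 ± 0.21 log2 (SE, limma adjusted p = 0.00067), from 54.9 and 71.8 to 213, 231 and 184. Flrt2, a ligand of latrophilins, rose by 1.49 ± 0.23 (adjusted p = 0.00147, and 0.0502 without cerebellum 2), and Nxph3, a secreted ligand of neurexins, by 1.25 ± 0.17 (limma adjusted p = 0.00022). The receptor phosphatases Ptprs and Ptprf rose by 1.00 ± 0.24 and 0.88 ± 0.26. Those calls were lost without cerebellum 2 (limma adjusted p = 0.106 and 0.116), and that of Ptprf also without cerebellum 1 (0.124). Of their other probe sets, 1 of Ptprs on 430B was higher at 1.31 (limma adjusted p = 0.0181) and 1 on 430A was at -0.03 and not called. For Ptprf, 1 was higher at 0.53 (limma adjusted p = 0.0474) and 1 was at 0.25 and not called.

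Cbln4, the remaining cerebellin on the chips, differed in direction from Cbln1 and Cbln3. It was dim, at 14.5 and 7.85 in cerebellum and 40.7, 20.8 and 48.5 in the tumours, with all tumours above both cerebellum arrays. The limma difference was 0.92 ± 0.23 log2 (SE, adjusted p = 0.0193). The call was lost without cerebellum 1 (0.0534), without cerebellum 2 (0.2), without medulloblastoma 1 (0.0714) and after the scaling on shared probe sets (0.344, and 0.182 against the best matched arrays). Nlgn3, a further neuroligin, read 27.9 and 32.7 against 31.1, 21.9 and 25.8 and was not called (-0.14 ± 0.15 log2, SE, limma adjusted p = 0.606).

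**Figure D4:**
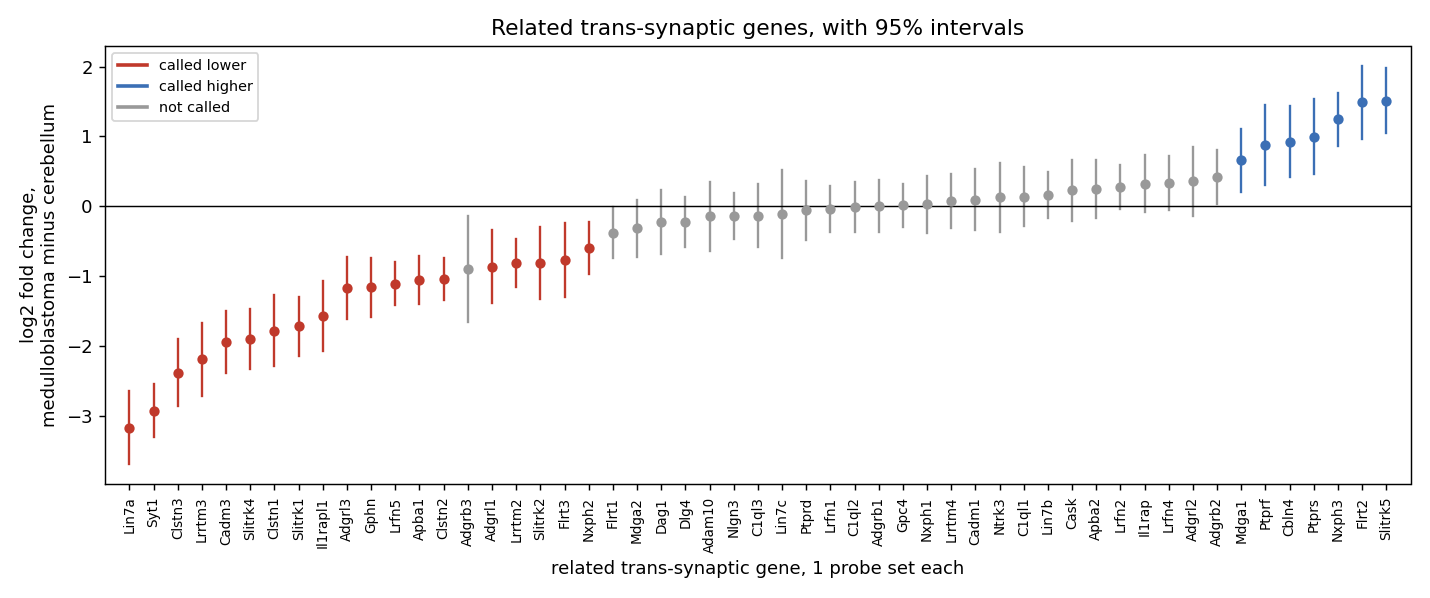
Log2 difference, medulloblastoma minus cerebellum, of the 53 tested related genes in order of size, with 95% intervals from limma. Red marks the 19 called lower, from Lin7a at -3.17, blue the 7 called higher, up to Slitrk5 at 1.51, and grey the genes not called.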

How the data were processed

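Total RNA was extracted with Trizol and made into biotinylated cRNA for Affymetrix 430A and 430B arrays, per the labels' protocols. The authors deposited linear intensity, 1 value per probe set and array. How software, scaling and background were set was not given in the sources used here. Low values seem to have been set to 1, the exact value of 298 to 477 probe sets on each array. Array medians on the log2 scale lay within 0.073 (430A) and 0.054 (430B), so no further normalization was applied. The sample titles gave groups and replicate numbers.

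Each chip was fitted with limma 3.58.1 in R 4.3.3 (lmFit, eBayes with an intensity trend, two-sided) on log2(intensity + 16), after leaving out the lowest 25% of probe sets by mean. A fold change on this scale understates that of dim probe sets. Related and marker genes are represented by 1 probe set each, 430A before 430B. Marker sums instead took 1 probe set per gene within each chip. Like-pattern genes are represented by their nearest probe set on the chip of the cerebellin probe set. The number of arrays limits the precision.

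Members and lists were chosen with earlier results of these data known. Of each list, the genes named are those of largest change (6 falls and 6 rises of the related list, 2 of each marker list), plus the 4 profiles nearest to each of 3 cerebellin probe sets. Gene names came from the platform annotation: 20380 of 22626 and 14661 of 22511 probe sets name 1 gene. Promoters came from RefSeq's GRCm38.p6 table, which held 4 of the 8 members. No coordinates of probe sets are given, since the arrays name no build. Alternatives varied the pseudocount, filter, normalization, variance trend, scaling across chips, replicate block and single arrays, and the calculation was tested on simulated data.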

Additional observations from a re-analysis of the deposited data

How the results depend on the processing

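All 9 lower calls among the members kept direction and call in 132 of 132 values under the alternatives that could test them; of 122 values for the uncalled probe sets, 2 passed the threshold (Nlgn2 1455143_at without medulloblastoma 2, and Nlgn1 1437160_at at -1.03 with medulloblastoma 3 as the only tumour on 430B, a fit added after seeing the data), and 15 changed sign without a call. Deviations of samples of the same replicate number correlated at -0.03 and 0.17 on 430A and 0.11 and 0.02 on 430B. The deviations of the 2 cerebellum arrays mirror each other, so these values cannot tell whether the numbers pair samples. In the fit with a replicate block, higher calls on 430B rose to 2822 and no member call changed. Medulloblastoma 3 is alone in its block and adds nothing to the differences of that fit. They therefore equal those without medulloblastoma 3 (Cbln3 1455445_at was at -4.04 in both), and the 2 alternatives are not independent. Scaling 430B on the shared probe sets left 459 higher calls; against the best matched 430A arrays, an alternative added after seeing the data, 582 were higher and 2608 lower. At an adjusted p below 0.01, higher calls were 1432 on 430A and 699 on 430B, lower calls on 430B 1069, and related genes higher 4. Leaving out 1 array gave 1284 to 2800 higher and 1967 to 3743 lower calls on 430A, 513 to 2601 higher and 917 to 2262 lower on 430B, and 2 to 8 higher and 15 to 20 lower related genes. With 1 array left in a group, it is assumed to vary like the other group. Tumour values near the floor bound the ratios of the dim probe sets, and 2 cerebellum arrays limit all intervals.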
